A study of Mus musculus with 18 samples.

Results

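The genes described here are 10 that encode proteins of lipid droplets or enzymes of droplet turnover: Hsd17b11, Bscl2, Plin2, Plin3, Hilpda, Dgat1, Dgat2, Pnpla2, Abhd5 and Mgll. They were found by symbol, 10 of the 35976 symbols listed per library, and all 10 were among the 15072 genes that passed the filter on low counts. Hsd17b11 was taken because it was lower in shDap5 in every fraction of these data, so its differences between the arms are given as a description and carry no test. The other 9 were taken for their role in the droplet. Polyadenylated RNA came from 4T1 cells, a mouse mammary carcinoma line of BALB/c origin that serves as a triple-negative breast cancer model. Every culture was induced with doxycycline at 2 µg/ml for 6 days. The cells carried either a non-silencing hairpin (NSi, the control arm) or a hairpin against Dap5 (shDap5). DAP5 is a translation initiation factor related to eIF4G and is encoded by Eif4g2. RNA was sequenced from unfractionated lysate (input), light polysomes and heavy polysomes, with 3 libraries for each arm and fraction, 18 in all. With 1 line per arm and no uninduced cells in the design, a difference present before doxycycline and one that followed it cannot be told apart. Whether the lines are clones, and whether the 3 libraries of a group are separate cultures, is not given in the sources used here. The p-values therefore cover only the spread seen between libraries, and that spread may be technical.

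A lipid droplet is a core of triglyceride and sterol ester inside a phospholipid monolayer, budded from the endoplasmic reticulum. The acyltransferases DGAT1 and DGAT2 make the triglyceride, seipin (Bscl2) shapes the site where the droplet forms, and perilipins (Plin2, Plin3) coat its surface. Lipolysis starts with adipose triglyceride lipase (Pnpla2), which CGI-58 (Abhd5) activates and HILPDA inhibits, and ends with monoglyceride lipase (Mgll). HSD17B11 is a short-chain dehydrogenase that is anchored on the droplet surface. Hilpda is a classical hypoxia-induced gene, and Plin2 and Hsd17b11 are known targets of peroxisome proliferator-activated receptors in liver.

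The 4 genes with the clearest differences between the arms are shown with the 250 bases before their start sites, because 3 were lower in shDap5 and Bscl2 was higher. The sequences are from RefSeq on GRCm38.p6, where 8 of the 10 genes had an entry. The counts were made on the older build mm9, so the coordinates belong to the reference only. For Bscl2 and Hilpda, which have several listed starts, the most upstream was taken. Sequences run 5′ to 3′ along the gene, and capitals mark GCGTG or ACGTG on either strand, the core letters that hypoxia-inducible factors bind.
Hsd17b11, chr5:104021797-104022046, minus strand: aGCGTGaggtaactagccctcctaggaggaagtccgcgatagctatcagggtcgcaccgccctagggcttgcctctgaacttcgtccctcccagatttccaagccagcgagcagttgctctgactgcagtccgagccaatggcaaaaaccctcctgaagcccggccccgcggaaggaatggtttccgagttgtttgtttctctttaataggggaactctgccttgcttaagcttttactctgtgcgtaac
Plin2, chr4:86670060-86670309, minus strand: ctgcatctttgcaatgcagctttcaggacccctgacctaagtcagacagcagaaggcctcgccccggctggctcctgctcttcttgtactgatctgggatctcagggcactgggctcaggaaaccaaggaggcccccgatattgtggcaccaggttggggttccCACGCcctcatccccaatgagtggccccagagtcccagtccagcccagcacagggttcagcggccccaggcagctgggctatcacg
Hilpda, chr6:29272238-29272487, plus strand: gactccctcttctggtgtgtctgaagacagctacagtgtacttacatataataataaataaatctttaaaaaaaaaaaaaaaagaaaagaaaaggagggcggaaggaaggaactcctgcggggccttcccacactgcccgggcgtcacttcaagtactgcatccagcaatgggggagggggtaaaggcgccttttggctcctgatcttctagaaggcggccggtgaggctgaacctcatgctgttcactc
Bscl2, chr19:8837217-8837466, plus strand: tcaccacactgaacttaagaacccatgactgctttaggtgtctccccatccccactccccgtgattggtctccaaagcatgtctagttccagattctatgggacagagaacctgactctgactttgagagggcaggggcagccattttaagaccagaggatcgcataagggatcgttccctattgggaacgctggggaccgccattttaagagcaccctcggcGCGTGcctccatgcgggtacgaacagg
GCGTG occurred once in the windows of Hsd17b11, Plin2 and Bscl2 and not in that of Hilpda, and ACGTG in 0 of the 4. Among all 32851 promoter windows of this length, 28.2% held GCGTG and 16.6% held ACGTG. The downstream start of Hilpda, not shown because its window runs past the upstream start, held ACGTG at 1 position and GCGTG at 2. A spaced repeat bound by peroxisome proliferator-activated receptors, the DR1 element, searched as its consensus on both strands, was in 0 windows of the members and in 0.0335% of all. Such a match describes letters, not binding, and a window without one says nothing of the factor.

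Total counts ran from 30385863 to 71331978 per library. Levels are given as CPM, counts divided by library size, with libraries scaled by the trimmed mean of M values (TMM). A count of 0 could still stand for up to 3 counts, which is 0.0394 to 0.11 CPM depending on the library, counting error only. Eif4g2, the target of the hairpin, ranged from 759 to 852 CPM in NSi inputs and measured 592, 340 and 671 CPM in shDap5 inputs 1, 2 and 3. The groups did not overlap, but edgeR did not call the difference (log2 -0.59, SE 0.26, adjusted p = 0.202). On light polysomes it fell to 33% of NSi (edgeR adjusted p = 0.00204) and on heavy to 36.5% (0.00349). The summed level of the 5 carcinoma keratin and adhesion markers (Krt8, Krt18, Krt7, Epcam, Cdh1) ran from 2500 to 2810 CPM over NSi inputs and from 3560 to 4210 CPM over those of shDap5, and all 5 were detected. Epcam rose in input (log2 0.95, edgeR adjusted p = 0.0237) and Krt7 on light polysomes (0.68, adjusted p = 0.041). The 8 adipocyte markers summed to 2.87 to 3.57 CPM in NSi and 0.423 to 1.36 CPM in shDap5 inputs. Of these, Lep and Cfd had 0 counts in all 6 inputs and Adipoq reached 0.0394 CPM at most. The 6 macrophage markers summed to 42.8 to 48.7 CPM in NSi and 20.5 to 61 CPM in shDap5 inputs, most of it Cd68 (43 ± 2.71 and 24.6 ± 22.8 CPM; SD, n = 3 each). Ptprc held at most 0.499 CPM and Adgre1 at most 0.0322 CPM in inputs. The macrophage markers did not move together: Csf1r rose in input from 2.26 ± 0.245 to 10.5 ± 1.52 CPM (log2 2.21, edgeR adjusted p = 6.53e-05) and also on light (1.66) and heavy polysomes (1.6), and Lyz2 fell in input (log2 -3, adjusted p = 0.00899). The 4 endothelial markers summed to between 2.03 and 2.68 CPM over NSi inputs and between 0.785 and 1.39 CPM over those of shDap5, and of them Tie1 fell in input (log2 -1.96, edgeR adjusted p = 0.0172). The 5 fibroblast markers summed to 30.8 to 40.5 CPM in NSi and 23.4 to 30.6 CPM in shDap5 inputs. Most of it was Pdgfra (35 ± 5.17 and 25.3 ± 3.7 CPM; SD, n = 3 each). The other 4 stayed below 1 CPM in every input, with Lum at 0 in all 6. Every library came from cells of the 4T1 line, so these marker levels do not show that other cell types were present. In bulk RNA, fewer cells of a type and less RNA per cell cannot be told apart.

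**Figure D1:**
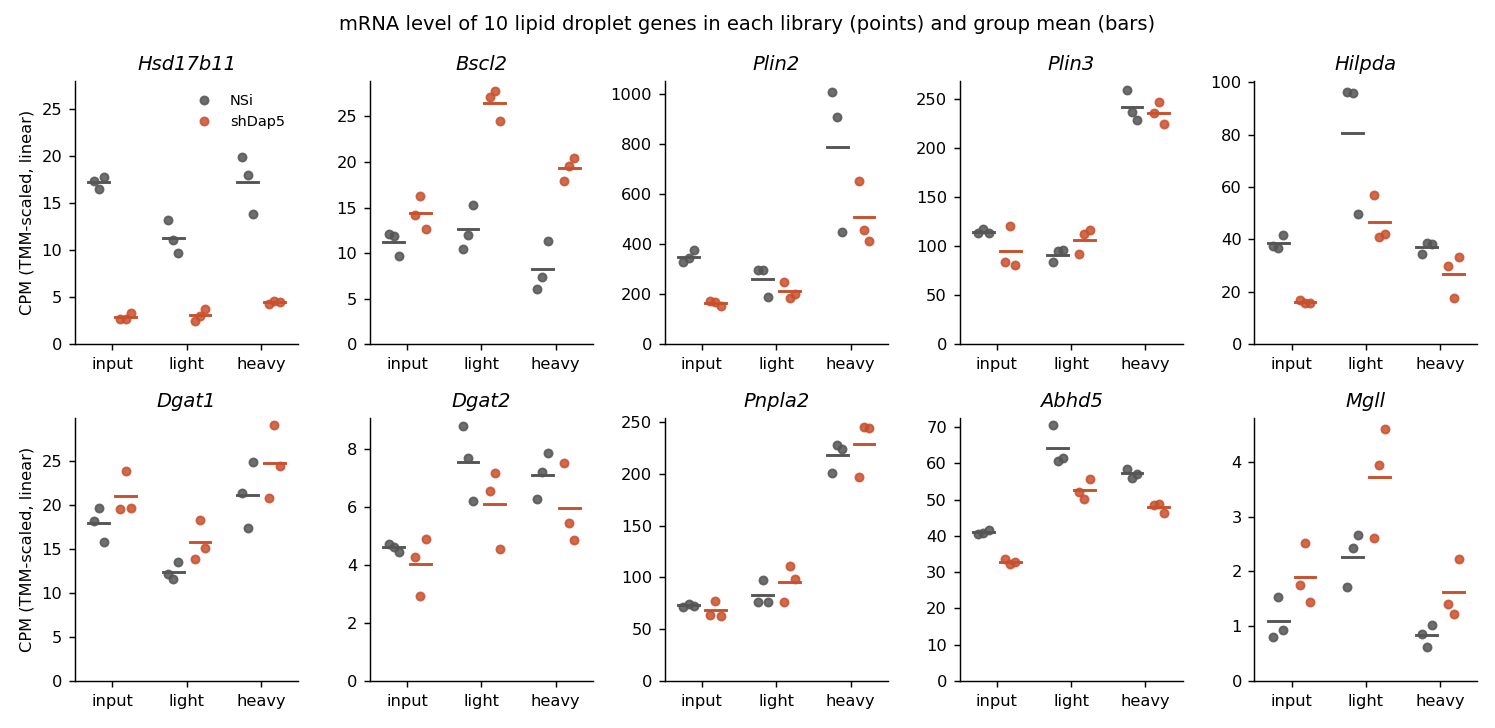
Level of each gene in CPM (linear vertical axes that start at 0) by fraction, with 1 point per library and a bar at the mean of 3 libraries for NSi (grey) and shDap5 (orange). In Hsd17b11 the highest shDap5 library of any fraction, at 4.65 CPM, lies below the lowest NSi library, at 9.72 CPM.

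Per kilobase of exon (GENCODE vM21), Plin2 was the most abundant of the 10 mRNAs in NSi inputs at 185 CPM per kb. It was followed by Hilpda at 34.9, Plin3 at 31.3, Pnpla2 at 27.8 and Abhd5 at 13 CPM per kb. Dgat1 stood at 9.48, Hsd17b11 at 5.3, Bscl2 at 4.96, Dgat2 at 2.04 and Mgll at 0.226 CPM per kb. In shDap5 inputs Hsd17b11 was at 0.882 CPM per kb, between Dgat2 (1.79) and Mgll (0.394), and Bscl2 was at 6.37.

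Hsd17b11 was lower in all 9 shDap5 libraries than in any of the 9 of NSi. Its levels in input were 17.4, 16.5 and 17.8 CPM in NSi and 2.69, 2.67 and 3.27 CPM in shDap5 libraries 1, 2 and 3. Light polysomes held 13.2, 11.1 and 9.72 CPM in NSi and 2.49, 2.95 and 3.79 CPM in shDap5. Heavy polysomes held 19.9, 18 and 13.9 CPM in NSi and 4.26, 4.65 and 4.48 CPM in shDap5. Each shDap5 library rested on 82 to 280 counts and each NSi library on 362 to 1144. Within each fraction, but not over all fractions together, the gap between the arms in CPM exceeded the spread within either arm. The shDap5 level was 16.7% of NSi in input, 27.2% on light and 25.8% on heavy polysomes, or log2 changes of -2.59 (SE 0.20), -1.88 (SE 0.20) and -1.95 (SE 0.20). These values are what the gene was chosen on. Of all genes tested, 147 (0.975%) fell in all 3 fractions by edgeR, and 3.17% were lower without overlap in all 3. Leaving out any single library kept the change between -2.68 and -2.53 in input, -2.05 and -1.75 on light and -2.09 and -1.83 on heavy polysomes. Its near relative Hsd17b13, also a droplet protein and its neighbour in the genome, had 0 counts in all 6 inputs. None of the 5 other tested members of the 17-beta-hydroxysteroid dehydrogenase family (Hsd17b1, Hsd17b4, Hsd17b7, Hsd17b10, Hsd17b12) passed the edgeR test in any of the 3 fractions. Their log2 changes in input ran from -0.19 to 0.37. Hsd17b7, an enzyme of cholesterol synthesis, was lower on heavy polysomes of shDap5 without overlap, 19.3 ± 2.77 against 33.6 ± 3.11 CPM in NSi (SD, n = 3 each), and did not pass there (log2 -0.80, SE 0.32, edgeR adjusted p = 0.206). In input its mean was higher in shDap5, 39.6 ± 20.8 against 30.7 ± 3.39 CPM in NSi, with shDap5 libraries from 15.7 to 53.3 CPM. Hsd17b12, an elongation enzyme of long-chain fatty acids, had 105 ± 5.92 CPM in inputs of NSi and 125 ± 27.8 CPM in those of shDap5 (SD, n = 3 each).

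Among the other 9 genes, Plin2 and Hilpda fell in input and Bscl2 rose on light and on heavy polysomes. In input 2 of the 9 passed the edgeR test, both lower, beside 6.95% of all genes tested in either direction (3.01% higher, 3.94% lower). On light polysomes 1 of 9 passed, higher, beside 3.47% of all genes (1.83% higher, 1.64% lower), and on heavy polysomes 1 of 9, higher, beside 3.95% (2.03% higher, 1.92% lower). The libraries of the arms did not overlap for 4 of 9 genes in input, 3 on light and 4 on heavy polysomes. For all genes that share was 37%, 19.9% and 15.7%. The median log2 change of the 9 genes was -0.19, 0.19 and -0.03 in input, light and heavy, where the median of all genes was 0.052, -0.015 and 0.014. With 9 genes these shares are a description. The paired fit, with replicate number as a block within each fraction, called 4, 4 and 3 of the 9 in input, light and heavy, beside 22.1%, 16.1% and 18.3% of all genes. It kept the 4 calls named above and added Abhd5 and Mgll in input, Abhd5, Hilpda and Mgll on light, and Plin2 and Mgll on heavy polysomes.

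**Figure D2:**
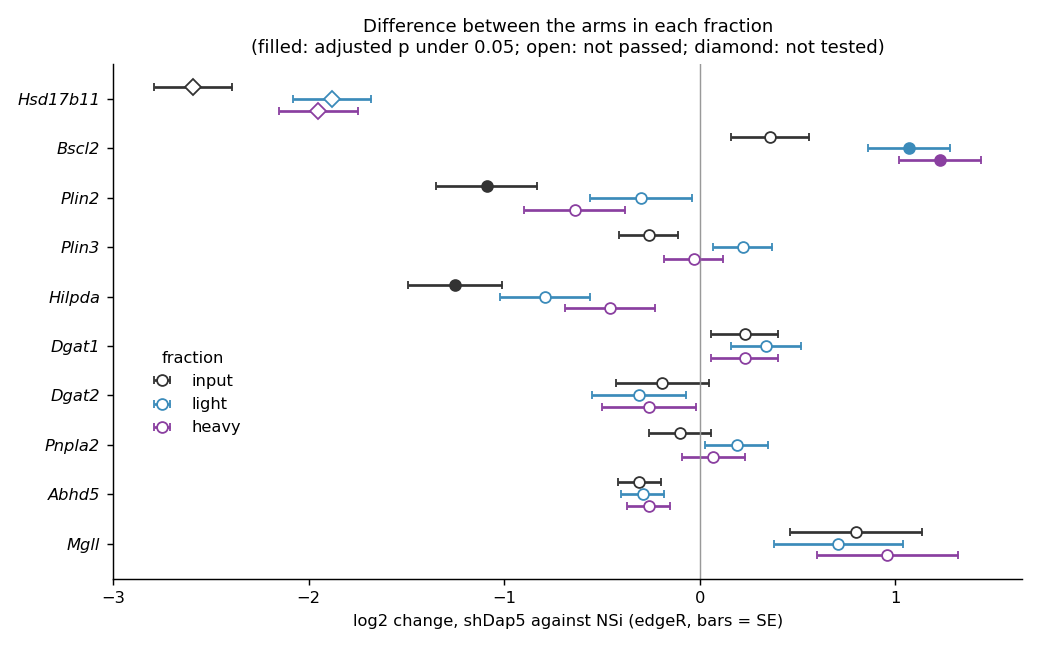
Log2 change of shDap5 against NSi (horizontal axis, edgeR, bars are SE) for each gene in input, light and heavy polysomes. Filled points passed at an adjusted p under 0.05, open ones did not, and the diamonds of Hsd17b11 carry no test. Plin2 and Hilpda are filled in input only, and Bscl2 on light and heavy polysomes only.

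Plin2, the perilipin that coats droplets in most cell types, stood at 329, 343 and 378 CPM in NSi inputs and at 171, 170 and 153 CPM in shDap5 inputs. The arms did not overlap, and Plin2 fell 2.13-fold (log2 -1.09, SE 0.26, edgeR adjusted p = 0.0141). That call was lost without NSi input 3 (edgeR adjusted p = 0.0597), without shDap5 input 1 (0.057) or without shDap5 input 3 (0.0735), with log2 changes from -1.13 to -1.03 over the 6 libraries left out in turn. On heavy polysomes Plin2 stood at 1010, 909 and 450 CPM in NSi and at 654, 457 and 412 CPM in shDap5. There NSi library 3 lay inside the shDap5 range, and the difference did not pass (log2 -0.64, SE 0.26, edgeR adjusted p = 0.199). It passed without NSi heavy 3 (log2 -0.92, edgeR adjusted p = 0.0239) and with replicate number as a block within each fraction (-0.58, adjusted p = 0.0224). On light polysomes the values were 298, 296 and 187 CPM in NSi and 249, 185 and 202 CPM in shDap5, again with NSi library 3 the lowest of its arm. That difference did not pass (log2 -0.30, SE 0.26, edgeR adjusted p = 0.641). Plin3, a perilipin that moves between cytosol and droplet, did not pass in any fraction. Its mean was 114 ± 2.5 CPM in NSi and 95 ± 22.1 in shDap5 inputs (SD, n = 3 each), and shDap5 input 2 at 120 CPM lay above every NSi input. Without that library Plin3 passed (log2 -0.47, edgeR adjusted p = 0.0405), where all libraries gave -0.26 (SE 0.15, adjusted p = 0.376). On polysomes Plin3 was at 0.22 (light) and -0.03 (heavy), with 95% intervals of -0.10 to 0.54 and -0.35 to 0.29.

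Bscl2 encodes seipin, which is mutated in congenital generalized lipodystrophy. It stood at 10.5, 12 and 15.3 CPM on light polysomes of NSi and at 27.1, 27.8 and 24.5 CPM of shDap5. On heavy polysomes the NSi libraries held 6.02, 7.39 and 11.3 CPM and the shDap5 libraries 17.9, 19.6 and 20.4 CPM. The arms were apart in both fractions. Bscl2 rose 2.1-fold on light (log2 1.07, SE 0.21, edgeR adjusted p = 0.00722) and 2.34-fold on heavy polysomes (1.23, SE 0.21, adjusted p = 0.00256). Both calls held with any single library left out (highest edgeR adjusted p 0.0381 on light and 0.0195 on heavy). The heavy call was lost when only the 6 heavy libraries were fitted (log2 1.2, SE 0.27, edgeR adjusted p = 0.119). In input the values were 12.1, 11.9 and 9.7 CPM in NSi and 14.2, 16.3 and 12.7 CPM in shDap5, close but without overlap, and the difference did not pass (log2 0.36, SE 0.20, edgeR adjusted p = 0.366). Bscl2 overlaps Gng3, on the other strand, and a further protein-coding model on its own strand (GENCODE vM21), and whether the counting used strand is not given in the sources used here. Gng3 had at most 2 counts in any library.

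The triglyceride-synthesizing enzymes did not pass in any fraction. Dgat1 was slightly higher in shDap5, at 17.9 ± 1.96 against 21 ± 2.43 CPM in input, 12.4 ± 1.0 against 15.7 ± 2.32 on light and 21.1 ± 3.73 against 24.7 ± 4.1 on heavy polysomes (SD, n = 3 each, NSi first). Its log2 changes were 0.23, 0.34 and 0.23, and the 95% interval reached 0.60, 0.72 and 0.60 at most. Only on light polysomes were the arms apart, by 13.5 against 13.8 CPM at the nearest libraries. Dgat2, with 4.61 ± 0.13 CPM in inputs of NSi and 4.04 ± 0.998 CPM in those of shDap5, overlapped between the arms in every fraction. Its log2 changes were -0.19, -0.31 and -0.26 (SE 0.24 each), with 95% intervals from -0.81 to 0.30 at the widest.

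Of the lipolysis genes among the 10, only Hilpda passed in the unpaired edgeR fit with TMM scaling and all libraries. Hilpda, the inhibitor of adipose triglyceride lipase, passed there in input. Its levels in input were 37.4, 36.7 and 41.5 CPM in NSi and 16.8, 15.9 and 15.7 CPM in shDap5, well apart. Hilpda fell 2.39-fold there (log2 -1.25, SE 0.24, edgeR adjusted p = 0.00312), and the call held with any single input left out (highest adjusted p 0.0216). Light polysomes held 96.4, 95.9 and 49.8 CPM in NSi and 56.8, 41.1 and 42.1 CPM in shDap5, so that NSi library 3 lay within the shDap5 range. The light difference did not pass (log2 -0.79, SE 0.23, edgeR adjusted p = 0.0755). It passed without NSi light 3 (log2 -1.04, edgeR adjusted p = 0.0142) and with replicate number as a block within each fraction (-0.75, adjusted p = 0.0169). DESeq2 called it as well (log2 -0.77, adjusted p = 0.0377). On heavy polysomes the values were 34.6, 38.5 and 38.1 CPM in NSi and 29.7, 17.6 and 33.3 CPM in shDap5, without overlap but with the nearest libraries 33.3 and 34.6 CPM. That difference did not pass (log2 -0.46, SE 0.23, edgeR adjusted p = 0.328), and rested in part on shDap5 heavy 2, without which it was -0.23. NSi library 3 was thus the lowest NSi library for both Plin2 and Hilpda on light polysomes and for Plin2 on heavy polysomes, and in input it was the highest for both.

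Abhd5, the activator of the same lipase, showed a small difference that hardly varied between libraries. NSi inputs held 40.5, 40.7 and 41.7 CPM and shDap5 inputs 33.6, 32.3 and 32.9 CPM. The arms were also apart on light (60.8 to 70.7 against 50.2 to 55.8 CPM) and on heavy polysomes (56.1 to 58.5 against 46.3 to 48.9 CPM). The log2 changes were -0.31, -0.29 and -0.26 (SE 0.11 each) and did not pass (edgeR adjusted p = 0.108, 0.187 and 0.243). With replicate number as a block within each fraction Abhd5 passed in input (-0.31, edgeR adjusted p = 0.0241) and on light polysomes (-0.29, adjusted p = 0.0461). It also passed by DESeq2 in input (adjusted p = 0.0106) and on light polysomes (0.0475). Of the 7 alternatives that kept all replicates, 4 called Abhd5 in input, 2 on light and 0 on heavy polysomes. Leaving out any single library gave 0 calls of Abhd5 in these fractions. Pnpla2, the lipase itself, overlapped between the arms in every fraction. It stood at 73 ± 1.59 and 68.1 ± 7.98 CPM in input, 83.3 ± 12.5 and 95.2 ± 17.7 on light and 218 ± 14.7 and 229 ± 27.3 on heavy polysomes (SD, n = 3 each, NSi first). The 95% intervals of its log2 change were -0.43 to 0.23, -0.14 to 0.52 and -0.26 to 0.40. Mgll, the lipase of the last step, was the least abundant of the 10, with 17 to 154 counts per library. It stood at 0.856, 0.622 and 1.02 CPM on heavy polysomes of NSi and 1.41, 1.22 and 2.22 CPM of shDap5, the only fraction in which its arms were apart. Its log2 changes were 0.80 (SE 0.34) in input, 0.71 (SE 0.33) on light and 0.96 (SE 0.36) on heavy polysomes, and none passed (edgeR adjusted p = 0.186, 0.303 and 0.159). With the block within fraction all 3 passed (edgeR adjusted p = 0.0113, 0.031 and 0.0114).

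In control cells the 10 mRNAs sat at different places on the gradient. Hsd17b11 was chosen on differences between the arms and not on this comparison, but the same NSi libraries entered both. Plin2, Plin3, Pnpla2, Dgat1 and Hsd17b11 were more abundant in heavy than in light polysome libraries, and Bscl2, Hilpda and Mgll were less abundant. By edgeR 5 of 10 were higher and 3 lower, beside 27% and 25.6% of all genes (52.6% in either direction). The largest excess in heavy polysomes was that of Plin2 (3.04-fold, log2 1.6, SE 0.26, edgeR adjusted p = 7.37e-05). It was followed by Plin3 (2.64-fold, 1.40, SE 0.16, adjusted p = 1.8e-06) and Pnpla2 (2.61-fold, 1.39, SE 0.16, adjusted p = 2.73e-06). The values of these 3 lay within their errors of each other. Dgat1 was at 0.77 (SE 0.18, edgeR adjusted p = 0.00151) and Hsd17b11 at 0.61 (SE 0.19, adjusted p = 0.0117). Dgat2 (-0.09, SE 0.24) and Abhd5 (-0.17, SE 0.11) did not pass. Mgll lay furthest to the light side, 2.73-fold lower in heavy (log2 -1.43, SE 0.36, edgeR adjusted p = 0.00271), then Hilpda (2.18-fold, -1.12, SE 0.24, adjusted p = 0.000728) and Bscl2 (1.53-fold, -0.61, SE 0.21, adjusted p = 0.0207). The Hsd17b11 call was lost without NSi light 3 (edgeR adjusted p = 0.0544) or NSi heavy 1 (0.0576) and with only the groups compared (0.0626). The Bscl2 call was lost without NSi light 3 (0.118), NSi heavy 1 (0.122) or NSi heavy 2 (0.0808) and with only the groups compared (0.0684). The lipase Pnpla2 stood at 201 to 228 CPM on heavy and 75.8 to 97.7 on light polysomes, and its activator Abhd5 at 56.1 to 58.5 on heavy and 60.8 to 70.7 on light. Upper quartile scaling moved the median of all genes by -0.24 in this comparison. Relative to that shift the order of the 10 was kept, but Hsd17b11 no longer passed (log2 0.37, edgeR adjusted p = 0.0959), Abhd5 was called lower (-0.41, adjusted p = 0.00493), and 36.8% of all calls were higher in place of 51.3%.

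**Figure D3:**
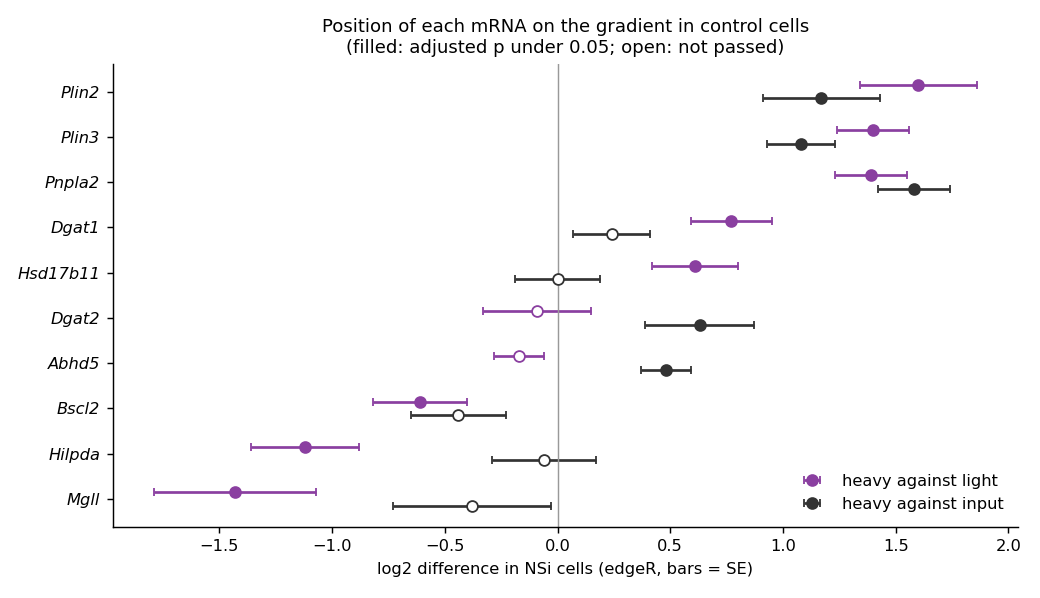
Log2 difference in NSi cells (horizontal axis, edgeR, bars are SE) between heavy and light polysomes (purple) and between heavy polysomes and input (black), genes ordered by the first. Filled points passed at an adjusted p under 0.05. Plin2, Plin3 and Pnpla2 lie at 1.39 to 1.6 in heavy against light, Mgll at -1.43.

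Against input, heavy polysomes of NSi cells were richer in 5 of the 10 mRNAs and poorer in 0 by edgeR, beside 26.4% and 20.2% of all genes (46.6% in either direction). The 5 were Pnpla2 (2.99-fold, log2 1.58, SE 0.16, edgeR adjusted p = 8.01e-07), Plin2 (2.26-fold, 1.17), Plin3 (2.11-fold, 1.08), Dgat2 (1.55-fold, 0.63) and Abhd5 (1.4-fold, 0.48). Dgat2 had an adjusted p of 0.0369 and was lost without 5 of the 6 libraries left out in turn (highest edgeR adjusted p 0.107). Hsd17b11 was as abundant on heavy polysomes as in input, 17.3 ± 3.09 and 17.3 ± 0.673 CPM (SD, n = 3 each). Hilpda was close to it in this respect, at 37.1 ± 2.13 and 38.5 ± 2.58 CPM, with 80.7 ± 26.7 CPM on light polysomes. Upper quartile scaling moved the median of all genes by -0.23 here, the calls of Dgat2 (log2 0.40, edgeR adjusted p = 0.156) and Abhd5 (0.26, adjusted p = 0.0651) were lost, Bscl2 was called lower (-0.66, adjusted p = 0.023), and 40% of all calls were higher in place of 56.6%.

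Whether the difference between the arms on heavy polysomes went beyond that in input was tested as an interaction, which asks for a change in polysome association at a given mRNA level. By edgeR 0 of 9 genes passed, as did 0 of all 15072 genes (0% called). DESeq2 also called 0, and 2 of the 9 were under 0.05 before adjustment with either tool, beside 295 of all genes with edgeR (1.96%) and 397 with DESeq2. Those 2 were Bscl2 (log2 0.87, SE 0.29, edgeR unadjusted p = 0.00824, adjusted p = 1) and Hilpda (0.79, SE 0.33, unadjusted p = 0.0286, adjusted p = 1). Plin2 was at 0.45 (SE 0.36), but at 0.17 without NSi heavy 3 and 0.23 without shDap5 heavy 1, and Hsd17b11, without a test, at 0.63 (SE 0.27). Bscl2 was called on heavy polysomes and not in input, and Plin2 and Hilpda in input and not on heavy polysomes, but none of these differences between fractions passed the test of the difference itself. The shift between light and heavy polysomes gave 0 calls among the 9 and among all genes (0%) with edgeR and with DESeq2. Before adjustment 0 of the 9 were under 0.05 with either tool, beside 181 genes of all with edgeR (1.2%) and 306 with DESeq2. The values of the 9 genes there ran from -0.34 (Plin2, SE 0.36) to 0.33 (Hilpda, SE 0.33), and Hsd17b11 was at -0.07 (SE 0.27). For both interactions the edgeR share of all genes lay below what a threshold of 0.05 gives when nothing changes. The main fit also did not pair the fractions of a replicate number. With replicate number as a block, overall or within each fraction, both interactions again gave 0 calls, among the 9 and among all genes. Same-numbered light and heavy libraries correlated (r = 0.51 to 0.71 in NSi, 0.67 to 0.76 in shDap5). The 0 calls therefore do not show that polysome association was unchanged. The order of the fraction means differed between the arms for some of the genes. For Hsd17b11, Plin2 and Plin3 input lay above light polysomes in NSi and below them in shDap5, and for Bscl2 and Hilpda input lay above heavy polysomes in NSi and below them in shDap5. In NSi, Plin2 stood at 350 ± 25.1 CPM in input and 260 ± 63.9 CPM on light polysomes. In shDap5 it stood at 164 ± 9.72 CPM in input and 212 ± 33.1 CPM on light polysomes (SD, n = 3 each). CPM is a share of each library, so these orders do not give the amount of an mRNA in a fraction. These orders were not tested, and the share of all genes with such a change of order was not computed. Some changes lay within the spread, as for Hsd17b11 in shDap5, with 2.88 ± 0.339 CPM in input and 3.08 ± 0.658 on light polysomes.

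The wider set of lipid storage genes was looked up from 6 lists of 84 symbols, of which 61 passed the filter on low counts. Of these 61, edgeR called 6 in input (1 higher, 5 lower), 3 on light polysomes (1 higher, 2 lower) and 2 on heavy polysomes (1 higher, 1 lower). As shares these are 9.84%, 4.92% and 3.28%, beside 6.95%, 3.47% and 3.95% of all genes. The median log2 change over the 61 genes was -0.01, 0 and -0.09. Of 15 other coat and biogenesis genes, 3 fell in input and 0 passed on polysomes. Mettl7a1, a methyltransferase-like protein of the endoplasmic reticulum and droplets, fell from 4.72 ± 0.199 CPM in NSi to 1.9 ± 0.58 in shDap5 (log2 -1.31, SE 0.26, edgeR adjusted p = 0.00425). Plin4 and Cidea, coat proteins of fat cells, were near the limit of detection and passed the filter through NSi alone, so they could be called only as lower, and the 2 calls carry no support for the count. Plin4 had 10 to 18 counts in NSi inputs and 0 to 2 in shDap5 inputs (edgeR adjusted p = 0.045), and Cidea 5 to 17 and 1 to 2 (0.0174). The genes Plin1 and Cidec, further coat proteins of fat cells, reached at most 0.0526 and 0.0156 CPM in inputs.

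Of 14 tested genes of triglyceride and sterol ester synthesis, 1 rose in input and 0 passed on polysomes. It was Acsl5, an acyl-CoA synthetase, at 309, 295 and 325 CPM in NSi and 579, 456 and 587 CPM in shDap5 inputs (log2 0.80, SE 0.18, edgeR adjusted p = 0.0097). Of 9 genes of lipolysis and droplet turnover, 1 fell in each fraction. Faah, fatty acid amide hydrolase, fell in input from 38.5 ± 2.28 CPM in NSi to 23.7 ± 3.33 in shDap5 (log2 -0.70, SE 0.17, edgeR adjusted p = 0.0172) and on heavy polysomes from 67.7 ± 12.7 to 43.8 ± 3.32 CPM (-0.63, SE 0.17, adjusted p = 0.0461). Pnpla3, a relative of Pnpla2, fell on light polysomes at 13 to 23 against 2 to 7 counts (edgeR adjusted p = 0.0469). Pnpla3 was not called in the other fractions. Input held 0.383 ± 0.0763 CPM in NSi and 0.442 ± 0.135 CPM in shDap5, and heavy polysomes 0.363 ± 0.0726 and 0.245 ± 0.0786 CPM (SD, n = 3 each). Hormone-sensitive lipase (Lipe), the enzyme between the steps of Pnpla2 and Mgll, had 29.3 ± 2.48 CPM in inputs of NSi, 25.2 ± 2.37 CPM in those of shDap5, and was not called in any fraction. The Pnpla2 inhibitor G0s2 reached at most 0.0327 CPM in inputs, so that of the pair of inhibitors searched, Hilpda and G0s2, only Hilpda was detected above the limit of a 0 count.

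Of 12 genes of fatty acid uptake, binding and oxidation, 1 fell in input, 1 rose and 1 fell on light, and 1 rose on heavy polysomes. Slc27a1, a fatty acid transporter at the plasma membrane, rose on light polysomes from 133 ± 8.13 CPM in NSi to 238 ± 20.1 in shDap5 (log2 0.83, SE 0.16, edgeR adjusted p = 0.0074) and from 163 ± 33.8 to 270 ± 37.6 on heavy polysomes (0.73, SE 0.16, adjusted p = 0.0161). In input Slc27a1 was also higher in shDap5 without overlap, 241 ± 36.8 against 170 ± 7.03 CPM in NSi, but did not pass. Fabp4, a fatty acid binding protein of fat cells, macrophages and endothelium, fell in input from 2.73 ± 0.271 CPM in NSi to 0.504 ± 0.245 in shDap5 (log2 -2.44, SE 0.35, edgeR adjusted p = 0.000335) and from 4.68 ± 0.941 to 1.72 ± 0.15 on light polysomes (-1.44, SE 0.33, adjusted p = 0.0214). Fabp4 makes up most of the adipocyte marker sum given above, which was also lower in shDap5. The endothelial marker sum and the macrophage marker Lyz2, given above, were lower in shDap5 inputs too, and Csf1r was higher. As all libraries came from cells of the carcinoma line named above, these marker levels do not show that other cell types were present. The cause of the lower Fabp4, Plin4 and Cidea was not tested. None of the 6 tested regulators passed in any fraction. Among the receptors named above for Plin2 and Hsd17b11, Ppard had 92.8 ± 6.92 CPM in inputs of NSi and 87.2 ± 22.4 CPM in those of shDap5. Ppara reached at most 0.109 CPM and Pparg at most 0.125 CPM in any input. Hif1a, which encodes a hypoxia-inducible factor controlled mainly at the protein level, stood at 309 ± 32.8 and 254 ± 25.8 CPM (log2 -0.28, SE 0.22, edgeR adjusted p = 0.534).

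**Figure D4:**
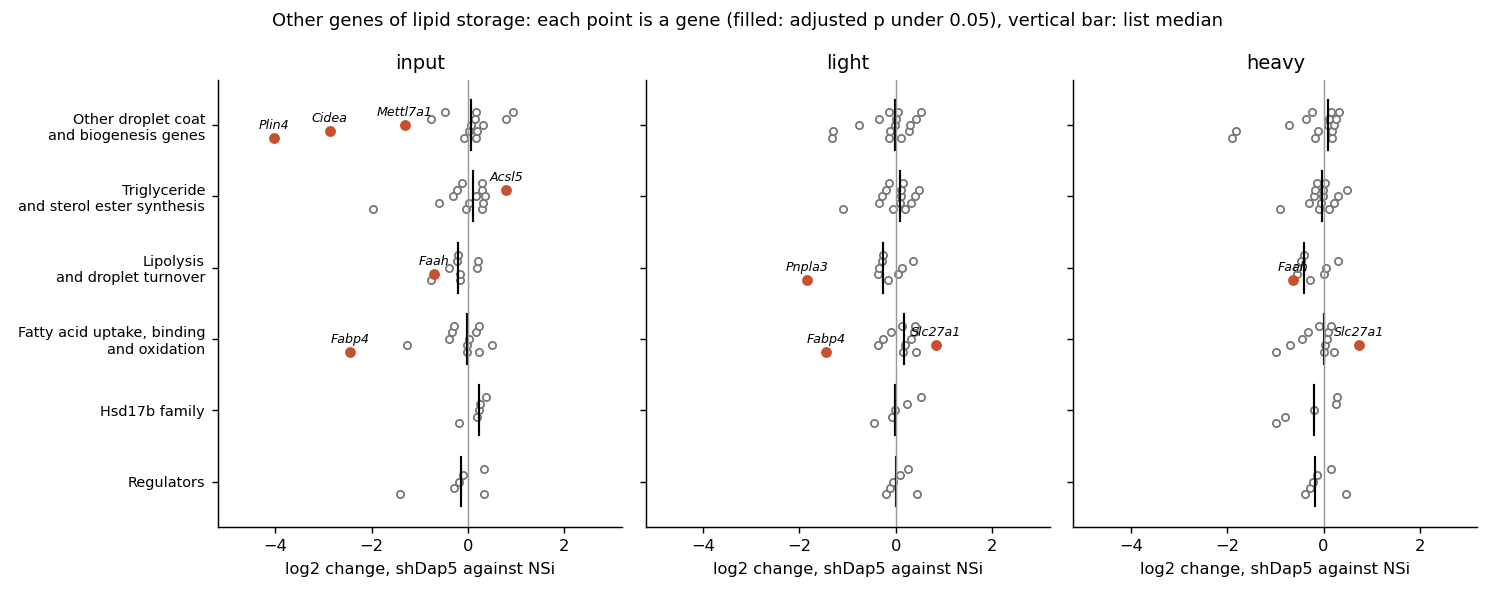
Log2 change of shDap5 against NSi (horizontal axis) in input, light and heavy polysomes for the tested genes of 6 lists of lipid storage, with 1 point per gene and a vertical bar at the median of each list. The filled and named points passed the edgeR test at an adjusted p under 0.05, 6 in input, 3 on light and 2 on heavy polysomes.

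Across the 18 libraries, the 4 genes whose log2 CPM followed Hsd17b11 most closely were Galm, Sox5, Akna and Fam49a, with Pearson r of 0.968, 0.953, 0.939 and 0.938. Galm encodes galactose mutarotase, and Sox5 and Akna encode DNA-binding proteins. The libraries share their arm, so any gene that differs strongly between the arms scores high, and r is a description only. In input Galm measured 1.76 ± 0.207 CPM (NSi) and 0.127 ± 0.046 CPM (shDap5; SD, n = 3 each). The shDap5 inputs, at 0.0961 to 0.18 CPM, lay not far above the limit of a 0 count. No lipid droplet gene of the 10 was among the closest. Plin2 (r = 0.60), Hilpda (0.46) and Abhd5 (0.41) followed Hsd17b11 most among them, and Bscl2 (-0.81) and Mgll (-0.66) ran opposite to it.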

How the data were processed

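Polyadenylated RNA was counted in 18 libraries. The values the authors deposited are unnormalized read counts by gene symbol, with 1 file per library. Reads were aligned with Bowtie to mm9, per the submitters' processing notes; the sources used here do not give the counting program, annotation or use of strand. Groups and replicate numbers came from the sample titles. Tests were edgeR 4.0.16 quasi-likelihood F tests on the counts (R 4.3.3; robust fit, TMM, filterByExpr with a minimum count of 10 and minimum total of 15), all 18 libraries in 1 fit with 1 mean per group (12 residual degrees of freedom, common biological coefficient of variation 0.227). P-values were adjusted by Benjamini-Hochberg over all 15072 genes within each of 7 comparisons, and a gene passed, was called, rose or fell where its adjusted p was under 0.05. The SE is the log2 change divided by the square root of F, and intervals use the moderated degrees of freedom. Total counts of 30385863 to 71331978 set the precision. The code was tested on simulated data.

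Replicates differed by more than counting noise in every group (lowest chi-square over its degrees of freedom 8.82). Whether a replicate number pairs libraries was checked over 10308 genes with at least 5 CPM, by correlating deviations from group means. Same-numbered libraries of the arms correlated within input (r = 0.13 to 0.37), light (0.56 to 0.79) and heavy (0.51 to 0.83), so the block within fraction is the paired fit there. NSi light and heavy libraries also correlated (0.51 to 0.71), and NSi input and heavy did not (-0.32 to 0.10).

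The genes, lists and comparisons were chosen with earlier results of these data known. Named genes are the 10 genes in every comparison, Eif4g2, up to 3 called genes per list and fraction, and the 5 genes most correlated with Hsd17b11 in log2 CPM (prior count 2), of which 1 is not reported here. A gene named outside this rule (such as Gng3, Lipe or Ppard) was chosen after its values were seen. Alternatives were a replicate block (overall and within fraction), DESeq2 1.42.0, RLE and upper quartile factors, no filter on low counts, only the groups compared, and each library left out in turn. Promoter sequences are from RefSeq (GRCm38.p6) and exon lengths from GENCODE vM21.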

Additional observations from a re-analysis of the deposited data

How the results depend on the processing

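For the 10 lipid droplet genes, each log2 difference that passed kept its direction under every alternative run. Genes called numbered 1047 in input, 523 on light and 595 on heavy polysomes. They were 1798, 1013 and 1122 with the replicate block, 3330, 2431 and 2765 with the replicate block within fraction, 2218, 219 and 56 with only the groups compared, and 987 and 1029 with DESeq2 on light and heavy polysomes. Each library left out in turn gave 486 to 1712 in input (1712 without shDap5 input 2), between 218 and 393 on light, and between 252 and 682 on heavy polysomes. Of the 9 lipid droplet genes other than Hsd17b11, 2, 1 and 1 were called in input, light and heavy. This became 4, 4 and 3 with the replicate block within fraction, and on light polysomes 2 with the replicate block and 3 with DESeq2. It became 0 on heavy polysomes with only the groups compared. With a library left out it was 1 to 3 in input and, on light as on heavy polysomes, 1 to 2. In NSi heavy against input, 5 of 10 were called, 3 without the filter and 4 to 5 with a library left out (5803 to 6753 genes), and in heavy against light 8 of 10, or 6 to 8 (6768 to 8089 genes). The 0 calls of heavy relative to input became 9 genes without shDap5 input 2, with 0 of the 9 lipid droplet genes among them.

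Values near 0 that did not pass changed sign. Hsd17b11 in NSi heavy against input was -0.06 with DESeq2 and with RLE factors, -0.23 with upper quartile factors, -0.03 without the filter and -0.08 with only the groups compared. Dgat1 in heavy relative to input was 0.04, 0.03 and 0.01 with upper quartile factors, without the filter and with only the groups compared, and Plin3 on heavy polysomes 0.00 without the filter. Leaving out each library gave ranges across 0 for Plin3 on heavy polysomes (-0.07 to 0.02), for Hsd17b11 (-0.11 to 0.14) and Hilpda (-0.09 to 0.00) in NSi heavy against input, and for Dgat2 in NSi heavy against light (-0.21 to 0.04). In heavy relative to input the ranges were -0.13 to 0.13 for Dgat1, -0.27 to 0.09 for Dgat2 and -0.18 to 0.41 for Mgll. In heavy relative to light they were -0.21 to 0.10 for Hsd17b11, -0.03 to 0.46 for Bscl2, -0.26 to 0.00 for Pnpla2, -0.25 to 0.01 for Dgat1, -0.16 to 0.18 for Dgat2, -0.04 to 0.08 for Abhd5 and -0.07 to 0.42 for Mgll. The cause was not tested for any of these changes. Depth limits Mgll most, with 17 to 154 counts per library.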
